A study of Mus musculus with 20 samples.

Results

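Genes for matrix proteins other than collagens were followed in mouse liver, with the genotype labels OGTL KO (a liver knockout of OGT, here KO) and OGTL WT (wild type, here WT). OGT (O-GlcNAc transferase) adds single N-acetylglucosamine residues to serines and threonines of proteins inside the cell. There were 4 groups of 5 arrays, and the series text gives 5 mice per group: KO at 4 weeks of age, WT at 4 weeks, KO at 8 weeks and WT at 8 weeks. The labels give neither the promoter that drives the deletion nor the sex, strain or diet of the mice. The listed genes numbered 10: Lum, Dcn, Bgn, Sparc, Sparcl1, Fn1, Fbn1, Fam180a, Lox and Loxl1. Of these 9 were measured among 19505 named genes, each by 1 feature of the array, and Fbn1 was not analysed here. The 9 genes were chosen by their symbols, on a list drawn up with measured values of these arrays already known. Sparcl1, Fam180a and Lum were among the largest differences between KO and WT at 8 weeks in that earlier work, and the lower Fn1 signal in KO at 4 weeks was known as well. Values of the comparison at 8 weeks are therefore given for these 9 genes as a description with no p-value.

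The extracellular matrix of the liver is a thin scaffold of collagens, proteoglycans and glycoproteins between hepatocytes and vessels, and it thickens in fibrosis. The small leucine-rich proteoglycans lumican (Lum), decorin (Dcn) and biglycan (Bgn) bind collagen fibrils and set their diameter, and decorin and biglycan also bind growth factors of the TGF-beta family. Sparc and Sparcl1 encode collagen-binding matricellular proteins that modulate the attachment of cells, Fn1 encodes fibronectin, and Lox and Loxl1 encode secreted copper enzymes that oxidise lysine residues so that collagen and elastin can be cross-linked. Stellate cells and portal fibroblasts are known as the main hepatic sources of most of these proteins, whereas hepatocytes secrete the plasma form of fibronectin. Fam180a encodes a predicted secreted protein whose function is little known.

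The promoters of 3 measured genes are shown because they are the measured genes of the list with an entry in the RefSeq promoter table of build GRCm38.p6. Each window runs from 250 bases before to 50 bases after the start of the gene and is printed 5′ to 3′ on the strand of the gene, with motif matches in capitals. The Bgn window is chrX:73483351-73483650 on the plus strand, the Sparc window chr11:55420031-55420330 on the minus strand and the Fam180a window chr6:35326092-35326391 on the minus strand.
Bgn: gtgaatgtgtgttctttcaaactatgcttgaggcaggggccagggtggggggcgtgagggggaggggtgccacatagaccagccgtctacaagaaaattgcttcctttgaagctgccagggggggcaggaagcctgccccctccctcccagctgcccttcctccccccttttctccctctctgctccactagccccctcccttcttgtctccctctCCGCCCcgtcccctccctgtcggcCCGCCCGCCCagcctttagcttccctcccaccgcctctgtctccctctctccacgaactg
Sparc: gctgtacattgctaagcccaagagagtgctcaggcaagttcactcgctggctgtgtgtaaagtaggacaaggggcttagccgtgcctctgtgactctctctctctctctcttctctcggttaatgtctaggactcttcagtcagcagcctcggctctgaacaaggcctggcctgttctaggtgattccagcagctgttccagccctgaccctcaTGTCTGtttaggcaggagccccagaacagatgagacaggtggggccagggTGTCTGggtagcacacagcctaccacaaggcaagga
Fam180a: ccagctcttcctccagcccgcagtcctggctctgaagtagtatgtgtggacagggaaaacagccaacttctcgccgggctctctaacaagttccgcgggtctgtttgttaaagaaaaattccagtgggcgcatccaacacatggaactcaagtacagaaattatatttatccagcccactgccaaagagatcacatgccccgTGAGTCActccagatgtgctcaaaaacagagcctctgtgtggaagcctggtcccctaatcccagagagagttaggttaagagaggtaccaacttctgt

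Both strands of these windows were searched for the GC box (GGGCGG), the TATA box (TATAAA), the AP-1 motif (TGANTCA), a SMAD motif (CAGACA) and a TEAD motif (GGAATG). The Bgn promoter held 3 GC boxes on the strand opposite to the gene, with matches starting at positions -34, -10 and -6 relative to the gene start, of which the last pair overlapped. A GC box stood in 35.7% of all 32851 promoters of this length. In the Sparc promoter CAGACA was found at 2 places on the opposite strand, 1 starting at position -36 and the other at position 15, and 21.0% of promoters held this motif. The Fam180a promoter held 1 AP-1 motif, which reads on both strands and starts at position -48, and 7.81% of promoters held one. No other match to the 5 motifs was found in the 3 windows, and TATAAA and GGAATG stood in 13.6% and 14.7% of all promoters. GC content was 63.7% in the Bgn window, 55.3% in the Sparc window and 50% in the Fam180a window, beside a median of 52.67% over all promoters. A match describes the sequence and was not tested for binding. Lum and Dcn are neighbours in the RefSeq annotation of the same build, with 0 genes between them.

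The targeted gene, Ogt, was read first as a check of the labels. At 4 weeks its log2 signal was 8.14 ± 0.53 in KO and 9.57 ± 0.31 in WT livers (SD, n = 5 each), a difference of -1.43 with a limma adjusted p of 8.82e-05. At 8 weeks it was 9.81 ± 0.21 in the arrays labelled KO and 10.08 ± 0.20 in WT, a difference of -0.27 that did not pass (limma adjusted p 0.529), and the groups overlapped. These arrays are therefore called arrays labelled KO below. Transcripts of skeletal muscle stood out in 3 arrays at 4 weeks: Acta1 was 15.04 and 15.43 in KO replicates 4 and 5 and 15.89 in WT replicate 4, and 4.24 to 6.11 in the other arrays. Background was set at the 95th percentile of the group means of 1410 olfactory and vomeronasal receptor genes, which lay between 5.02 and 5.20. The sample titles number the arrays group by group, so an effect of array order and one of group cannot be told apart. In bulk liver, fewer cells of a type and less RNA per cell cannot be told apart either. Values for Dcn, Fn1 and, in 1 array, Sparc reach past 16, the log2 ceiling of a 16-bit scanner, so how they relate to scanner intensity is not known here.

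At 8 weeks, 7 of the 9 genes were higher in the arrays labelled KO than in WT, with every such array above every WT array: Lum, Dcn, Bgn, Sparc, Sparcl1, Fam180a and Loxl1. Fn1 and Lox overlapped between the groups. Over all genes 4.94% were called higher and 1.65% lower at 8 weeks, and 6.1% had groups without overlap. Nothing is read from the count of 7, since this comparison was known when they were listed. At 4 weeks 1 of the 9 genes passed the test, Fn1, which was lower in KO, and none was called higher by limma, where 1, Dcn, was higher at an unadjusted p below 0.05. The shares of all genes were 4.7% called higher, 5.48% called lower and 8.55% without overlap at that age. When all arrays were given equal medians, every gene shifted by -0.07 at 4 weeks and -0.11 at 8 weeks on the log2 scale. The share of higher calls among all calls then became 33.2% in place of 46.2% at 4 weeks, and 48.3% in place of 75.0% at 8 weeks.

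**Figure D1:**
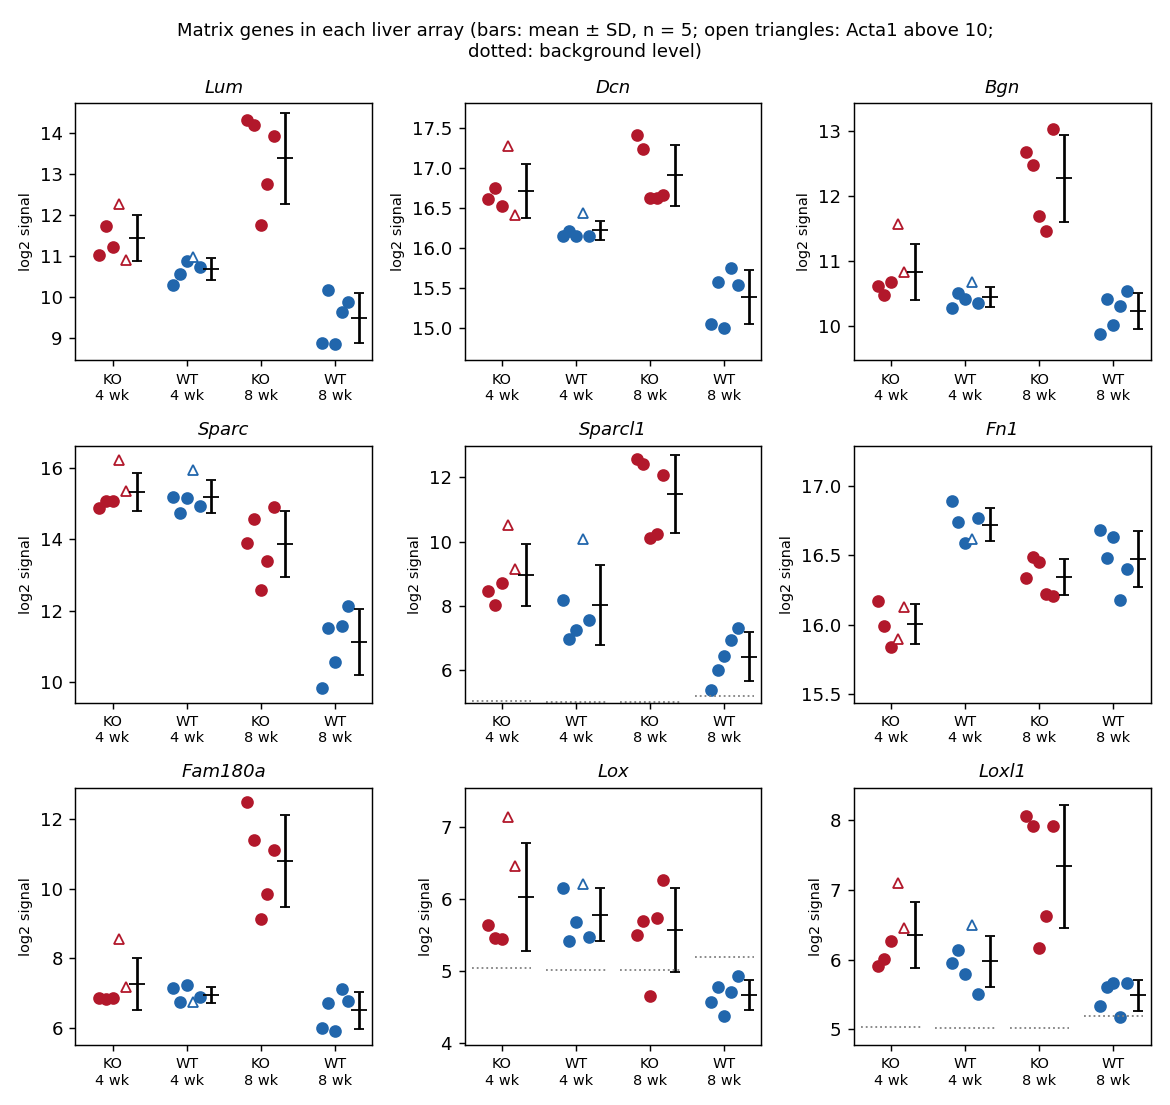
Log2 signal of the 9 measured genes (y axis, one panel each) in every array of the 4 groups (x axis), with the group mean ± SD (n = 5) as a bar beside the points, open triangles for arrays with Acta1 above 10 and dotted lines at the background level where it is in range. The arrays labelled KO at 8 weeks stand above the WT arrays of that age for Lum, Dcn, Bgn, Sparc, Sparcl1, Fam180a and Loxl1, and Fn1 is the gene that separates KO from WT at 4 weeks.

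Lumican carries keratan sulfate chains and helps to order collagen fibrils. At 4 weeks Lum was 11.03, 11.73, 11.23, 12.27 and 10.90 in KO livers, against 10.29, 10.56, 10.88, 10.98 and 10.72 in WT livers. The groups overlapped, and the difference of 0.75 (SE 0.40) did not pass the test (limma adjusted p 0.283). At 8 weeks Lum was 14.33, 14.19, 11.75, 12.75 and 13.93 in the arrays labelled KO, against 8.87, 10.18, 8.85, 9.64 and 9.88 in WT livers. The lowest array labelled KO lay above the highest WT array, and the means were 13.39 ± 1.11 and 9.48 ± 0.60 (SD, n = 5 each). That is a difference of 3.91 (SE 0.40, 95% interval 3.08 to 4.73), or 15.0-fold. Of the 5 arrays labelled KO, 4 also exceeded all 10 arrays taken at 4 weeks.

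Decorin is the best studied collagen-binding proteoglycan of this family. Dcn was 16.61, 16.75, 16.53, 17.27 and 16.41 in KO livers at 4 weeks, against 16.15, 16.21, 16.15, 16.43 and 16.15 in WT livers. All KO arrays but replicate 5 lay above every WT array, and the difference of 0.50 (SE 0.19) did not pass (limma adjusted p 0.112). With quantile normalization repeated on the deposited values it was 0.63 and passed, with a limma adjusted p of 0.0309. At 8 weeks Dcn was 17.41, 17.24, 16.63, 16.62 and 16.66 in the arrays labelled KO, against 15.05, 15.57, 14.99, 15.75 and 15.53 in WT livers. The arrays labelled KO were all higher than WT at that age, by 1.53 (SE 0.19, 95% interval 1.14 to 1.93) or 2.90-fold, yet only replicate 1 exceeded the highest array at 4 weeks, at 17.27.

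Biglycan, whose soluble form can signal through Toll-like receptors, completes the trio of small proteoglycans. Bgn was 10.61, 10.48, 10.67, 11.56 and 10.83 in KO livers at 4 weeks, against 10.28, 10.50, 10.42, 10.67 and 10.35 in WT livers. The groups overlapped, and the difference of 0.39 (SE 0.25) did not pass (limma adjusted p 0.403). At 8 weeks Bgn was 12.68, 12.48, 11.69, 11.46 and 13.02 in the arrays labelled KO, against 9.87, 10.41, 10.01, 10.30 and 10.54 in WT livers. Every array labelled KO was higher than every WT array at either age, with a difference at 8 weeks of 2.04 (SE 0.25, 95% interval 1.52 to 2.56), or 4.11-fold.

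Sparc encodes osteonectin, a small glycoprotein that binds collagen. At 4 weeks Sparc was 14.89, 15.06, 15.08, 16.22 and 15.36 in KO livers, against 15.19, 14.74, 15.16, 15.95 and 14.92 in WT livers. The groups overlapped throughout, and the difference of 0.13 (SE 0.42) did not pass (limma adjusted p 0.906). At 8 weeks it was 13.91, 14.57, 12.58, 13.40 and 14.90 in the arrays labelled KO, against 9.84, 11.52, 10.58, 11.59 and 12.13 in WT livers. The arrays labelled KO were higher than WT at 8 weeks by 2.74 (SE 0.42, 95% interval 1.87 to 3.61), or 6.68-fold. None of them exceeded all arrays at 4 weeks, and 4 of the 5 lay below every WT array at 4 weeks.

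Sparcl1, also called hevin, is the closest relative of Sparc. It was 8.46, 8.02, 8.72, 10.53 and 9.14 in KO livers at 4 weeks, against 8.20, 6.99, 7.25, 10.09 and 7.57 in WT livers. The highest array of each genotype was replicate 4, which carried muscle transcripts in both, and the difference of 0.95 (SE 0.59) did not pass (limma adjusted p 0.377). At 8 weeks it was 12.59, 12.43, 10.12, 10.23 and 12.07 in the arrays labelled KO, against 5.40, 6.02, 6.46, 6.94 and 7.32 in WT livers. The gap between the lowest array labelled KO and the highest WT array was wide, and the difference of 5.06 (SE 0.59, 95% interval 3.83 to 6.29), or 33.4-fold, was the largest of the 9 genes. In 3 of the 5 arrays labelled KO the value also exceeded all arrays at 4 weeks.

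Fibronectin links cells to collagen through integrins. Fn1 was 16.17, 15.99, 15.84, 15.90 and 16.13 in KO livers at 4 weeks, against 16.89, 16.74, 16.59, 16.62 and 16.77 in WT livers. Every KO array was lower than every WT array, with a mean difference of -0.72 (SE 0.12, 95% interval -0.96 to -0.47, limma adjusted p 0.000394). The KO signal was 60.9% of that in WT, a difference already known when the gene was listed, so its p is no independent support. Without the 3 arrays with muscle transcripts the difference was -0.75 (limma adjusted p 0.00424). At 8 weeks Fn1 was 16.34, 16.49, 16.45, 16.22 and 16.21 in the arrays labelled KO, against 16.68, 16.48, 16.63, 16.18 and 16.40 in WT livers. Those groups overlapped, with a difference of -0.13 (SE 0.12, 95% interval -0.38 to 0.11).

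Fam180a was the one gene of the 9 for which all 5 arrays labelled KO at 8 weeks exceeded every array of the other groups. It was 6.87, 6.84, 6.87, 8.56 and 7.19 in KO livers at 4 weeks, against 7.16, 6.75, 7.23, 6.76 and 6.88 in WT livers. Apart from KO replicate 4, an array with muscle transcripts, these values lay close together, and the difference of 0.31 (SE 0.45) did not pass (limma adjusted p 0.773) and was -0.15 without the 3 arrays with muscle transcripts. At 8 weeks Fam180a was 12.50, 11.39, 9.14, 9.85 and 11.12 in the arrays labelled KO, against 5.99, 6.73, 5.92, 7.12 and 6.78 in WT livers. The lowest array labelled KO lay well above the highest WT array, and the difference at 8 weeks was 4.29 (SE 0.45, 95% interval 3.35 to 5.24), or 19.6-fold.

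Lox encodes the founding member of the lysyl oxidase family, and its signal lay close to background. At 4 weeks it was 5.65, 5.46, 5.45, 7.15 and 6.47 in KO livers, against 6.16, 5.42, 5.68, 6.21 and 5.48 in WT livers. The highest KO values were those of the arrays with muscle transcripts, and the difference of 0.25 (SE 0.30) did not pass (limma adjusted p 0.713) and was -0.17 without the 3 arrays with muscle transcripts. At 8 weeks Lox was 5.50, 5.70, 4.66, 5.74 and 6.27 in the arrays labelled KO, against 4.58, 4.78, 4.38, 4.72 and 4.93 in WT livers. The WT mean of 4.68 was not above background. The difference was 0.90 (SE 0.30), and 0.38 when counted from the background level, a value given without sampling error. Replicate 3 labelled KO lay within the WT range.

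Loxl1, whose product is required for elastic fibres, was 5.91, 6.01, 6.26, 7.10 and 6.46 in KO livers at 4 weeks, against 5.95, 6.14, 5.79, 6.49 and 5.51 in WT livers. The groups overlapped, and the difference of 0.37 (SE 0.31) did not pass (limma adjusted p 0.552). At 8 weeks Loxl1 was 8.06, 7.91, 6.16, 6.63 and 7.92 in the arrays labelled KO, against 5.33, 5.61, 5.66, 5.18 and 5.67 in WT livers. Every array labelled KO was higher than every WT array, by 1.85 on average (SE 0.31, 95% interval 1.20 to 2.49), or 3.60-fold.

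**Figure D2:**
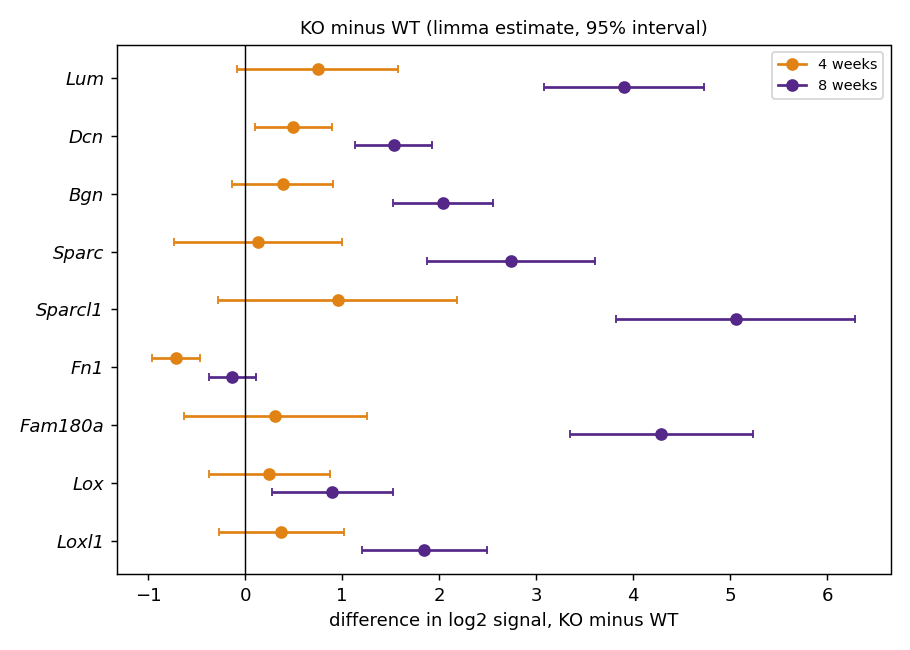
Difference in log2 signal between KO and WT (x axis) for each of the 9 genes (y axis), as the limma estimate with its 95% interval, at 4 weeks and at 8 weeks. At 8 weeks Sparcl1 has the largest difference, 5.06, and Fn1 the smallest in size, -0.13. At 4 weeks the interval of Fn1 lies below 0 and that of Dcn just above it, while the other 7 span 0.

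In WT livers 3 of the 9 genes fell between 4 and 8 weeks and none rose, by limma. At an unadjusted p below 0.05 there were 6 lower and 0 higher. Of all genes 5.23% were called lower and 3.71% higher. These differences rest on the WT arrays of 8 weeks, which also entered the comparison known when the genes were listed, so they are not independent of that choice. The share of higher calls among all calls was 41.5%, and 52.0% with equal array medians. Sparc fell by 4.06 (SE 0.42) to 11.13 ± 0.91 at 8 weeks in WT, against 15.19 ± 0.46 at 4 weeks (SD, n = 5 each), a 16.7-fold lower signal with a limma adjusted p of 9.11e-07. Its WT arrays at 8 weeks all lay below its WT arrays at 4 weeks. Dcn fell by 0.84 (SE 0.19), to 15.38 ± 0.34 at 8 weeks against 16.22 ± 0.12 at 4 weeks (limma adjusted p 0.00615). The fall of Lox, -1.11 (SE 0.30, limma adjusted p 0.0208), ended below background, and was -0.59 when counted only down to the background level. Without WT replicate 1 or 4 at 4 weeks, or WT replicate 3 at 8 weeks, Lox did not pass (limma adjusted p 0.0577, 0.0625 and 0.0568). Lum was 1.20 lower on average and its groups did not overlap, but the difference did not pass (SE 0.40, limma adjusted p 0.0634), and neither did that of Sparcl1, -1.59 (SE 0.59, limma adjusted p 0.102). Lum did pass without WT replicate 2 at 8 weeks (limma adjusted p 0.0481), with array weights (0.0486) and with the WT arrays fitted alone (0.00977). The WT differences of Bgn, Fn1, Fam180a and Loxl1 ran from -0.49 to -0.22, with limma adjusted p from 0.222 to 0.68. Over the same ages in WT 5 of 8 endothelial, 2 of 10 stellate cell and 3 of 7 myofibroblast markers were called lower and none higher. Of 7 macrophage markers 3 were called lower and 1 higher, and of 6 mesothelium markers 1 lower and none higher. No portal fibroblast, cholangiocyte, hepatocyte or muscle marker was called by limma. At an unadjusted p below 0.05, 2 portal fibroblast markers were lower, and 1 cholangiocyte marker was higher and 1 lower. The part of these cell types in the falls was not tested. The marker counts include WT replicate 4 at 4 weeks, which carried muscle transcripts. Its myofibroblast mean was 8.03, against 6.47 to 7.66 in the other WT arrays at 4 weeks.

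Between the arrays labelled KO at 8 weeks and KO at 4 weeks, 5 of the 9 genes were called higher and 1 lower, against 7.85% and 6.78% of all genes. These differences rest on the same 8-week arrays labelled KO whose values were known when the genes were listed, and so do those of the interaction, so neither is independent of that choice. Ogt itself rose between these groups, by 1.67 (SE 0.20, limma adjusted p 9.46e-06), and its interaction was 1.16 (limma adjusted p 0.0307), so age and the level of Ogt cannot be told apart here. Fam180a rose by 3.53 (SE 0.45, limma adjusted p 1.65e-05) and Sparcl1 by 2.51 (SE 0.59, limma adjusted p 0.00556). Lum rose by 1.96 (SE 0.40, limma adjusted p 0.00165) and Bgn by 1.44 (SE 0.25, limma adjusted p 0.000403). Loxl1 rose by 0.99 (SE 0.31, limma adjusted p 0.0358), a call lost when any of KO replicates 1, 2, 3 and 5 at 4 weeks or 1, 2 and 5 at 8 weeks was left out (limma adjusted p 0.05 to 0.112) and when the KO arrays were fitted alone (0.11). Sparc was called lower here as well, falling by 1.45 (SE 0.42, limma adjusted p 0.0214), to 13.87 ± 0.93 in the arrays labelled KO at 8 weeks against 15.32 ± 0.53 at 4 weeks. That call was lost without the 3 arrays with muscle transcripts, with a difference of -1.14 (limma adjusted p 0.113), and without KO replicate 4 at 4 weeks (0.0644) or replicate 3 (0.0658) or 4 (0.0537) at 8 weeks. The differences were 0.20 for Dcn, 0.34 for Fn1 and -0.46 for Lox, with limma adjusted p of 0.575, 0.061 and 0.36. Lox was 0.05 higher without the arrays with muscle transcripts. Between the same groups 6 of 7 cholangiocyte markers were called higher and none lower (median 2.02), 2 of 7 macrophage markers higher and 4 lower (median -1.19), and 2 of 7 myofibroblast markers, Acta2 and Tagln, lower and none higher (median -0.86). Of 10 stellate cell markers 1 was called higher and none lower (median 0.20), and of 10 portal fibroblast markers 2 higher and 1 lower (median -0.045). Of 6 mesothelium markers 2 were called higher and none lower (median 0.21), and of 8 endothelial markers 1 lower and none higher (median -0.22). The part of these cell types in the differences was not tested. All these marker counts include the KO arrays with muscle transcripts at 4 weeks, replicates 4 and 5. In these the myofibroblast mean was 8.76 and 8.03, against 7.23 to 7.59 in the other KO arrays at 4 weeks. The part of the muscle transcripts in the marker calls was not tested.

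**Figure D3:**
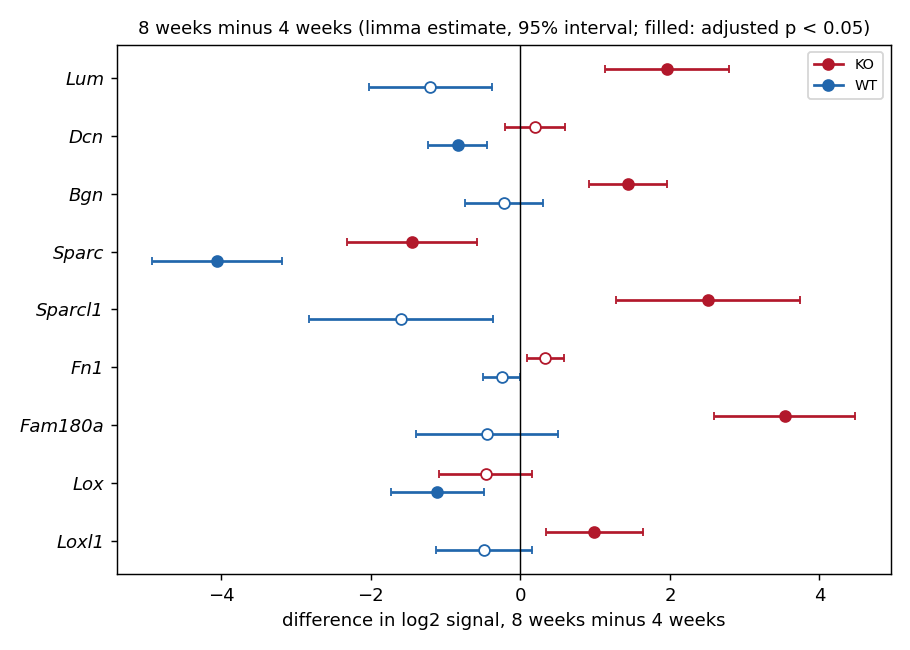
Difference in log2 signal between 8 and 4 weeks (x axis) for each gene (y axis) in KO and in WT, as the limma estimate with its 95% interval, filled where the adjusted p was below 0.05. Lum, Bgn, Sparcl1, Fam180a and Loxl1 are filled to the right of 0 in KO, Dcn, Sparc and Lox are filled to the left of 0 in WT, and Sparc is filled to the left of 0 in both.

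The interaction, that is the KO effect at 8 weeks minus the KO effect at 4 weeks, was called higher for 6 of the 9 genes and lower for none by limma, with 8 higher and 0 lower at an unadjusted p below 0.05. Of all genes 2.05% were called higher and 1% lower. It was 4.11 (SE 0.84, limma adjusted p 0.0103) for Sparcl1, 3.98 (SE 0.64, limma adjusted p 0.00187) for Fam180a and 3.16 (SE 0.56, limma adjusted p 0.00344) for Lum. For Sparc it was 2.61 (SE 0.59, limma adjusted p 0.019) and for Bgn 1.65 (SE 0.35, limma adjusted p 0.0143). Behind the value for Sparc stood a fall with age by 1.45 in KO and by 4.06 in WT. Dcn had 1.04 (SE 0.27, limma adjusted p 0.0387), a call that was lost when single arrays were left out in 12 of 20 cases, with limma adjusted p up to 0.077. The values for Loxl1, 1.47 (SE 0.44, limma adjusted p 0.0741), Fn1, 0.58 (SE 0.17, limma adjusted p 0.0618), and Lox, 0.65 (SE 0.42, limma adjusted p 0.501), did not pass. Loxl1 passed without KO replicate 4 at 4 weeks (limma adjusted p 0.0388) and without replicate 3 (0.0116) or 4 (0.0408) labelled KO at 8 weeks.

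The arrays labelled KO at 8 weeks were ordered alike across the genes. Replicates 3 and 4 were the lowest pair for 7 of the 9 genes, and replicate 2 was among the highest 3 for 9 of 9. Replicate 3 was 2.27 above the WT mean for Lum, 3.69 for Sparcl1, 2.63 for Fam180a and 0.67 for Loxl1. Replicate 1 was 4.85, 6.16, 5.99 and 2.57 above it for the same genes. The genes are read from the same RNA, so their shared order is no replication. At 4 weeks, of the 3 arrays with muscle transcripts, KO replicate 4 was the highest KO array for 8 of 9 genes and WT replicate 4 the highest WT array for 7 of 9, while KO replicate 5 was the highest for 0 of 9 and the lowest for 2, Lum and Dcn. Their part in the levels at 4 weeks beyond the values given without them was not tested.

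**Figure D4:**
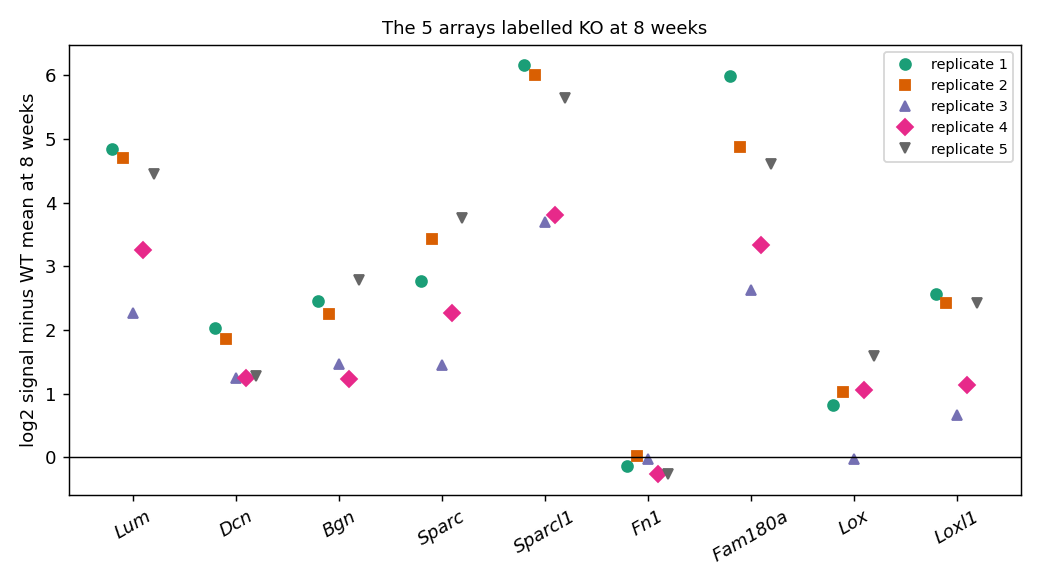
Log2 signal of each of the 5 arrays labelled KO at 8 weeks minus the WT mean of the same age (y axis), for each gene (x axis), with a symbol per replicate. Replicates 3 and 4 lie lowest for 7 of the 9 genes, and every array lies above 0 for all genes but Fn1 and Lox.

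Markers of the cell types that make matrix, and of others, were read on the same arrays. These marker lists were drawn up with earlier results of these data known, so their calls and p-values are no independent support. At 8 weeks 4.94% of all genes were called higher and 1.65% lower. The mean level over 10 stellate cell markers ran from 6.90 to 7.55 in the arrays labelled KO at 8 weeks, against 6.18 to 6.72 in WT, and 2 of the 10 were called higher. These were Pdgfrb, the receptor for platelet-derived growth factor, by 2.74 (SE 0.22, limma adjusted p 1.71e-07), and Colec11, by 0.88 (SE 0.17, limma adjusted p 0.00275), while the signal of Des stayed at background in both groups and that of Lhx2 in WT. The mean over 10 portal fibroblast markers ran from 6.50 to 7.58 in the arrays labelled KO and from 5.64 to 6.11 in WT. Here Dpt, Gas6 and Cd34 were called higher, Pi16 and Clec3b were not above background in either group, and Thy1 was not in WT. Over 7 myofibroblast markers the range was 6.37 to 7.60 in the arrays labelled KO and 5.48 to 6.50 in WT, with 4 of 7 called higher: Col1a1, Col1a2, Col3a1 and Timp1. The contractile markers of this list did not pass, with differences of -0.53 for Acta2, 0.23 for Tagln and -0.30 for Cnn1. Timp1 and Cnn1 were not above background in either group.

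All 7 measured cholangiocyte markers were called higher in the arrays labelled KO at 8 weeks, beside 4.94% of all genes. Their mean ran from 6.65 to 8.99 there and from 4.67 to 5.57 in WT. In WT Krt19, Epcam, Cldn4 and Cldn7 were not above background. Cldn4 and Cldn7, at 5.09 and 5.17 in the arrays labelled KO, lay just above the background level of that group, 5.02, and below that of WT, 5.20. Counted from the WT level their differences were -0.11 and -0.02. No rise above the WT background level is thus shown for Cldn4 and Cldn7. Replicates 3 and 4, with 6.65 and 6.87, were the lowest arrays labelled KO for this mean too. The same pair was lowest for the portal fibroblast mean, with 6.50 and 6.58, and the myofibroblast mean, with 6.37 and 6.77. The stellate cell mean was instead highest in replicate 4, at 7.55, and lowest in replicate 5, at 6.90. For the mesothelium mean replicates 3 and 2 were lowest, with 5.52 and 5.59, and the endothelial and macrophage means did not have replicates 3 and 4 as lowest pair either. The means over 8 hepatocyte markers ran from 18.11 to 18.23 in the arrays labelled KO and from 18.20 to 18.26 in WT, and none of the 8 was called by limma, nor had an unadjusted p below 0.05. Over 6 mesothelium markers the range was 5.52 to 6.57 in the arrays labelled KO and 4.78 to 5.19 in WT, with Gpm6a and Krt19 called higher. Msln, Upk1b and Wt1 were not above background in either group. Of the other lists, 1 of 8 endothelial markers (Pecam1, 0.81) and 3 of 7 macrophage markers (Gpnmb, Trem2 and Adgre1) were called higher, where the signal of Trem2 stayed at background in both groups and that of Gpnmb in WT. The other macrophage markers differed by -0.76 (Timd4), -0.68 (Clec4f), -0.39 (Vsig4) and -0.04 (Cd5l) and did not pass, 2 of them being lower at an unadjusted p below 0.05. Of 10 muscle markers 0 were called by limma, also with 0 at an unadjusted p below 0.05. Gpm6a, Pecam1, Adgre1 and Cd34 stood above background in both groups. Some genes are on several lists: Krt19 marks mesothelium and cholangiocytes. Among the portal fibroblast markers Dpt, Eln, Mfap4 and Fbln2, and among the myofibroblast markers Col1a1, Col1a2 and Col3a1, are matrix genes themselves. The part of these cell types in the levels of the matrix genes was not tested.

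Other matrix genes were counted in 10 families, leaving out the 9 genes. These lists, too, were drawn up with earlier results of these data known, so the calls and p-values of all families are no independent support. At 8 weeks 44 of the 108 genes in them (40.7%) were called higher and 1 (0.926%) lower, beside 4.94% and 1.65% of all genes. At 8 weeks 2 of 10 further small leucine-rich proteoglycans were called higher and none lower, with a median difference of 0.48, beside -0.04 over all genes. They were Ogn, by 1.85 (limma adjusted p 0.0113), and Prelp, by 1.52 (limma adjusted p 0.000609). None of 6 further SPARC family genes was called in either direction by limma, with 1 higher and 1 lower at an unadjusted p below 0.05 and a median of -0.02. Of 15 fibrillin microfibril and elastic fibre genes 9 were called higher and none lower, with a median of 1.04. Among the 9 called, Mfap2, at 4.97 and 3.89, was not above background in either group. Fbn2, Fbln1, Ltbp2 and Ltbp3 were not above it in WT, and all of these were named after their values were seen. Efemp1, which encodes fibulin-3, was 11.91 ± 0.92 in the arrays labelled KO and 9.45 ± 0.41 in WT (SD, n = 5 each), a difference of 2.46 (limma adjusted p 0.00011). Fbln5 (fibulin-5) was 1.68 higher and Ltbp4, a binding protein of latent TGF-beta, 1.27 higher. Of 2 further lysyl oxidases, Loxl3 was called higher, by 0.78 (limma adjusted p 0.00377).

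Among 15 adhesive and matricellular glycoproteins 7 were called higher and none lower at 8 weeks, with a median of 0.87. Dpt (dermatopontin, which binds decorin) was 10.88 ± 1.34 in the arrays labelled KO and 7.40 ± 1.08 in WT, a difference of 3.48 (limma adjusted p 0.00225). Thbs2 (thrombospondin 2) was 2.44 higher and Igfbp7 2.33 higher (limma adjusted p 3.37e-05 and 1.47e-06). Of 17 basement membrane genes 9 were called higher and 1 lower, with a median of 0.76. The laminin chain Lama2 was 2.53 higher, or 2.34 when counted from the background level, since its WT mean was not above background. Lamb1 was 1.96 and Nid1 (nidogen) 1.86 higher. The lower one was Lama3, at -0.69 (limma adjusted p 0.0303), named after its value was seen. Cd44, the hyaluronan receptor, was the 1 gene called of 10 in the hyalectan and hyaluronan list, at 1.83 (limma adjusted p 1.16e-05). The median of that list was -0.08.

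For comparison with the fibrils that these proteins bind and cross-link, 4 of 10 fibrillar and associated collagens were called higher at 8 weeks and none lower, with a median of 0.81. Col3a1 was 3.37 higher, Col1a2 2.86 and Col6a3 1.97, and Col1a1, 1.46 higher, was named among the myofibroblast markers. In collagen processing 4 of 12 were called higher and none lower, with a median of -0.01. These were Serpinh1, the collagen chaperone, by 1.88, Crtap by 1.66, Plod2, a lysyl hydroxylase, by 1.46, and Pcolce, which was named after its value was seen and whose WT mean of 4.91 was not above background. The TGF-beta list holds ligands, receptors and activators and also Smad7 and Skil. Of its 11 measured genes 7 were called higher and none lower, with a median of 0.90. Itgb8 and Tgfb3 were 1.33 and 1.30 higher, or 1.0 and 1.03 when counted from the background level, since their WT means were not above background. Itgb6 was 1.31 higher.

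**Figure D5:**
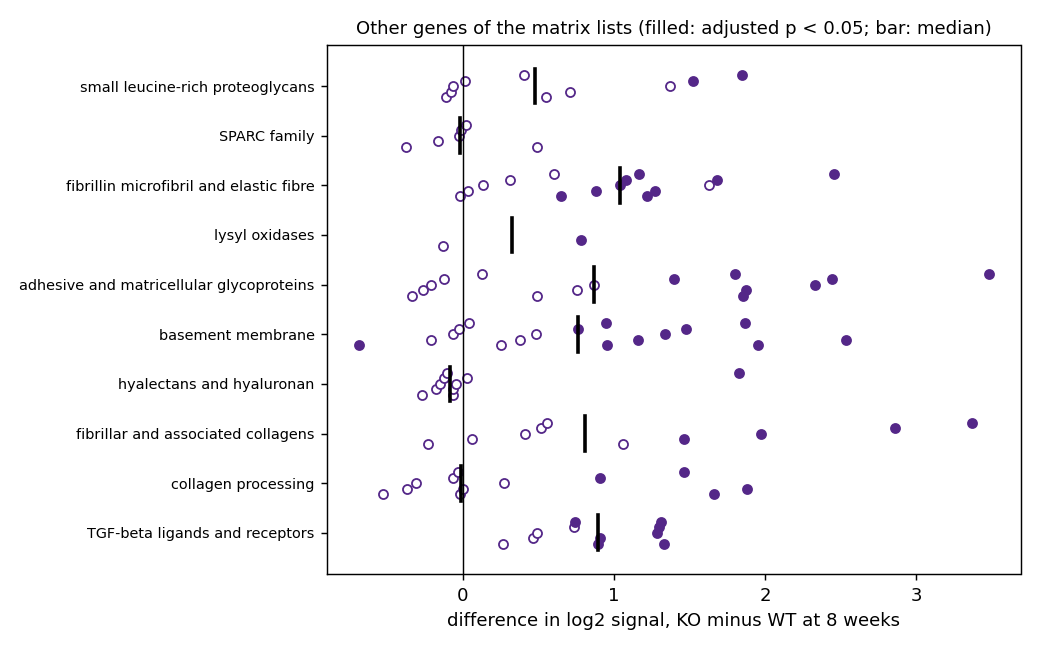
Difference in log2 signal between arrays labelled KO and WT at 8 weeks (x axis) for the other genes of the 10 matrix families (y axis), without the 9 genes followed, with filled circles for an adjusted p below 0.05 and a bar at each median. The medians run from -0.08 for hyalectans and hyaluronan to 1.04 for the fibrillin and elastic fibre genes.

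At 4 weeks 5 of the 108 genes in these 10 families passed, 3 higher (2.78%) and 2 lower (1.85%), beside 4.7% and 5.48% of all genes. Among the markers, Tspan8, Gpnmb, Cd5l, Thy1 and Timp1 were called higher in KO, and Colec11, Stab2, Cyp2e1 and F2 lower. Timp1 was not above background in either group at that age, and Thy1 and Gpnmb not in WT. Nid1 was 10.57 ± 0.18 in KO and 9.29 ± 0.61 in WT, a difference of 1.28 (limma adjusted p 0.000967). Cd44 was 1.04 higher (limma adjusted p 0.0025). Tnc (tenascin C) was 0.83 higher (limma adjusted p 0.0374), or 0.59 when counted from the background level, since its WT mean was not above background. Bmp1, the procollagen C-proteinase, was called lower, with a difference of -1.06 (limma adjusted p 0.00558) and so was Col18a1, with -0.56 (limma adjusted p 0.0491). Between 4 and 8 weeks in WT, 23 of the 108 genes (21.3%) were called lower and 3 (2.78%) higher, beside 5.23% and 3.71% of all genes. The lower ones were 7 of 17 basement membrane genes, 4 of 10 collagens, 4 of 12 collagen processing genes, 3 of 15 adhesive glycoproteins, 2 of 15 elastic fibre genes, 2 of 10 in the hyalectan list and 1 of 10 small proteoglycans. None of the SPARC family, lysyl oxidase and TGF-beta lists was called by limma, with 2 TGF-beta genes lower at an unadjusted p below 0.05. Col3a1 differed by -3.38 (limma adjusted p 8.28e-05), Nid1 by -2.39 (limma adjusted p 4.21e-07) and Serpinh1 by -1.74 (limma adjusted p 0.00015). In KO over the same ages, Col3a1 differed by -0.86, which did not pass (limma adjusted p 0.289), and Nid1 by -1.81 (limma adjusted p 1.63e-05).

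The genes whose profile over the 20 arrays came closest to each member were found by the root mean square difference of log2 profiles centred on their own means. Closest to Lum were Mmp2 (0.42 log2 units), the gelatinase A gene, and Olfml3 (0.42). Dcn was closest to Il10rb (0.25) and Spire1 (0.30), and Bgn to Ezr (0.26) and Ncam1 (0.28). Sparc was closest to Col3a1 (0.62), the type III collagen chain, and Car2 (0.64). For Sparcl1 the nearest were Dpt (0.76) and Bicc1 (0.81), and for Fam180a Olfml3 (0.61) and Bicc1 (0.67). Loxl1 lay nearest to Gpm6b (0.27) and Col6a3 (0.28), and Lox to Pecam1 (0.29) and Entpd1 (0.29). Fn1 varied by an SD of 0.30 over the arrays, below the limit of 0.5 set for this search. The points share 4 group means, so a small difference describes the shape of the profile over these groups.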

How the data were processed

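RNA from 20 mouse livers was hybridised to Clariom S Mouse arrays, 5 per group. The authors processed the arrays with Affymetrix Expression Console and RMA, per the submitters' processing notes, with no version stated. The deposited values are log2 signals from 2.32 to 19.85 with array medians of 5.42 to 5.58, and were used unscaled. No raw scans were used here. Of 22206 features 19572 carried 1 symbol, and 2634 with none or with several were left out. For 55 symbols with several features the highest mean was kept.

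Using limma 3.58.1 and R 4.3.3, a mean per group was fitted for 19505 genes over all 20 arrays, with Benjamini-Hochberg adjustment and calls at an adjusted p below 0.05. The script was tested on simulated data. The members, lists and background level were chosen with earlier results of these data known. From each matrix list, up to 3 genes called at 8 weeks and 2 at 4 weeks were named by size of difference. From each marker list the called genes were taken. The likeness search used members with an SD over 0.5. Alternatives were other normalizations, rank scores, a dim-gene filter, other variance moderation, array weights, fits on the arrays of 1 comparison, a replicate block, the muscle arrays left out, all features, and each array left out. The number of arrays limits the precision. Each p-value of the main fit weighs a difference against the spread between mice within groups, estimated over all 20 arrays.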

Additional observations from a re-analysis of the deposited data

Results flagged for a closer look

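Among the 36 groups of 5 values looked at for a single array far from the others, 2 were found, and chance alone gives about 1 in 20 groups. For Dcn in WT livers at 4 weeks the highest array, replicate 4, was at 16.43 while the other 4 lay between 16.15 and 16.21. For Fam180a in KO livers at 4 weeks the highest array, also replicate 4, was at 8.56 while the others lay between 6.84 and 7.19. Both are arrays in which Acta1 was above 10, and whether muscle tissue accounts for these values was not tested.

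The KO effect differed between 8 and 4 weeks for 6 genes by the interaction term of the limma fit: Lum by 3.16, Dcn by 1.04, Bgn by 1.65, Sparc by 2.61, Sparcl1 by 4.11 and Fam180a by 3.98 log2 units. These values share the arrays labelled KO at 8 weeks with the comparison known when the genes were listed.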

How the results depend on the processing

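No listed gene changed its direction among calls under any alternative, and calls of the listed genes at 8 weeks are not counted. At 4 weeks the number of the 9 genes called was 2 with quantile normalization repeated, in place of 1, the addition being Dcn. Over all genes the interaction gave 271 calls with rank scores in place of 595, and 385 without replicate 1 labelled KO at 8 weeks, the lowest of a range of 385 to 747 with single arrays left out. With rank scores the interaction of Dcn (limma adjusted p 0.107) and of Sparc (0.0542) did not pass, and with array weights that of Fn1 (0.0305) and Loxl1 (0.0276) did, as did the age difference of Fn1 in KO (0.0406). Leaving out single arrays gave 1 listed gene called at 4 weeks, 5 to 7 in the interaction, 5 in KO with age and 2 to 4 in WT with age. Correlations of same-numbered arrays ran from -0.146 to 0.479 at 4 weeks and from -0.176 to 0.14 at 8 weeks, so the numbers were not taken as pairs. With the replicate number as a block the listed genes called were 1 at 4 weeks, 6 in the interaction, 5 in KO with age and 3 in WT with age, Loxl1 in KO being lost (limma adjusted p 0.0543). The fit on the arrays of 1 comparison was not run for the interaction, which uses all arrays. Signals near background limit Lox.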
